A study of Mus musculus with 10 samples.

Results

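The genes of the collagens, laminins, nidogens and integrins were examined in brain endothelial cells (BECs) of APP/PS1 and control mice. They were the protein-coding genes whose GENCODE M21 symbol begins with Col, Lama, Lamb, Lamc, Nid, Itga or Itgb followed by the number or letter of a chain. Of 14106 genes in the deposited table, 54 met this rule. They comprised 5 type IV collagen genes, 18 other collagen genes, 11 laminin and nidogen genes, 11 integrin alpha subunit genes and 6 integrin beta subunit genes, and 3 further genes matched by their letters alone. These 3 were Col4a3bp, which encodes the ceramide transfer protein, and Itgb1bp1 and Itgb3bp, which encode proteins that bind integrin tails. Another 35 protein-coding symbols of GENCODE M21 meet the rule, among them Col1a1, Col6a1, Col25a1, Itgam, Itgb2 and Lamb3, and were not among the genes analysed here. One member, Itgb2l, is related to the leukocyte subunit gene Itgb2.

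RNA was sequenced in bulk from CD31+CD45− BECs of the cortex in 10 libraries, 5 from female APP/PS1 mice and 5 from female controls, all aged 1 year and on a C3H/BL6 background. APP/PS1 mice carry 2 transgenes, Mo/HuAPP695swe for an amyloid precursor with the Swedish mutation and PS1DE9 for a mutant presenilin. Both are described as expressed ubiquitously, and amyloid plaques build up. The control mice are labelled WT. The meninges were removed before the cortex was digested with an enzyme mix that included collagenase, and CD31+ cells were enriched on beads. Each library was set against the library of the other genotype with the same replicate number, which gave 5 pairs. The p values of the main test measure how the differences in these 5 pairs spread. Whether a library came from 1 mouse or a pool is not stated in the sources used here, so this need not be a spread between mice. Values are log2 CPM, the log2 of counts scaled to the library size.

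Endothelial cells of the brain rest on a basement membrane. This sheet holds a network of type IV collagen and another of laminin, a cross-shaped trimer of an alpha, a beta and a gamma chain. Nidogens and the proteoglycan perlecan link them. Integrins are pairs of an alpha and a beta subunit that span the cell membrane and hold the cell to this sheet. In capillaries the sheet is shared with pericytes, which together with smooth muscle cells are called mural cells, and with the endfeet of astrocytes.

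The type IV collagen genes lie in pairs that start back to back. Col4a1 (chromosome 8, 11198423 to 11312826 of GRCm38, minus strand) and Col4a2 (11312805 to 11449287, plus strand) overlap at their first exons by 22 bases. Col4a4 (chromosome 1, 82448423 to 82586849, minus strand) and Col4a3 (82586921 to 82722059, plus strand) are separated by 71 bases, which hold none of the 3 promoter motifs searched. Col4a5 (chromosome X, 141475385 to 141689234, plus strand) is the one type IV gene that was lower in APP/PS1 in every pair, and its upstream sequence is shown with those of Col6a6 and Col5a3. Col6a6 had the smallest p of all members and Col5a3 the largest fold change. All are RefSeq sequences of GRCm38.p6, written 5′ to 3′ on the strand given and limited to bases outside every annotated exon, with capitals for a GC box (GGGCGG) or a CCAAT box (CCAAT) on either strand. A TATA box (TATAAA) was in none of them.
Between Col4a4 and Col4a3, chr1:82586850-82586920, minus strand: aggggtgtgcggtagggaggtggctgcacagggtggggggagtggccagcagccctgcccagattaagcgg
Upstream of Col4a5, chrX:141475169-141475384, plus strand: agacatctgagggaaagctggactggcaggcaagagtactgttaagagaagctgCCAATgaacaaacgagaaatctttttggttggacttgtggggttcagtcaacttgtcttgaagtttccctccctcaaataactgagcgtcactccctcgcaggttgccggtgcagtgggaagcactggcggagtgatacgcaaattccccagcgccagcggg
Upstream of Col6a6, chr9:105828161-105828335, minus strand: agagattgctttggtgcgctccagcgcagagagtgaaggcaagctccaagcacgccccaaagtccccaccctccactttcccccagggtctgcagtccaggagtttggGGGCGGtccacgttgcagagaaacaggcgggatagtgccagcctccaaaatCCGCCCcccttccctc
Upstream of Col5a3, chr9:20815068-20815317, minus strand: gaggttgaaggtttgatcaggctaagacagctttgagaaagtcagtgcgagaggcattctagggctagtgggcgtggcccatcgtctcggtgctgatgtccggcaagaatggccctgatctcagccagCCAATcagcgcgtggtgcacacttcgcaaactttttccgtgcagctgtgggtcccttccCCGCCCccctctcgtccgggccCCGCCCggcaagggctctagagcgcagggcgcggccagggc
Promoter windows of 300 bases were found for 39 of the 54 members, as 41 windows. A GC box was in 61.0% of these windows and in 35.7% of all 32851 promoter windows, a CCAAT box in 29.3% and 37.4%, and a TATA box in 7.32% and 13.6%. A match describes the letters of a window and not a bound site.

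The most abundant members were genes of the capillary basement membrane and its receptors. Scaled to the length of the merged exons, so that genes can be compared, the mean level was highest for Itgb1, the beta subunit shared by most matrix receptors, at 7.59 log2 CPM per kb. Lamb2 followed at 7.28, Col4a1 at 7.21, Col4a2 at 6.87 and Itga6, the alpha subunit of the main laminin receptors, at 6.68. Lamb2 and Col4a1 did not differ beyond their spread, the larger SD of the neighbours, whereas the other steps among these 5 genes were larger. This SD is that of batch-corrected values, so most spread between pairs had been removed from it. It also holds no error of the exon length. Col4a3bp, no matrix gene, came next at 6.38. Lama5 stood at 5.18, Lamc1 at 5.01, Itga1 at 4.97, Itga5 at 4.54 and Itga3 at 4.49. Of the laminin alpha chains, Lama5 was above Lama4 (3.93) and Lama3 (3.69), while Lama1 (0.56) and Lama2 (−1.07), the chains best known from the outer, parenchymal sheet, were far lower. Lamb1 was at −0.03, well below Lamb2. Of the collagens outside type IV, Col6a6 (4.30), Col18a1 (3.89) and Col14a1 (3.53) led, and the fibrillar collagen genes Col3a1 (−1.90) and Col1a2 (−2.45) were near the bottom. Itgb8 (−3.79) and Itgb2l (−4.25) had the lowest levels. From Lama1 down the order is not firm, since 3 of the 24 steps between neighbours were larger than their spread.

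**Figure D1:**
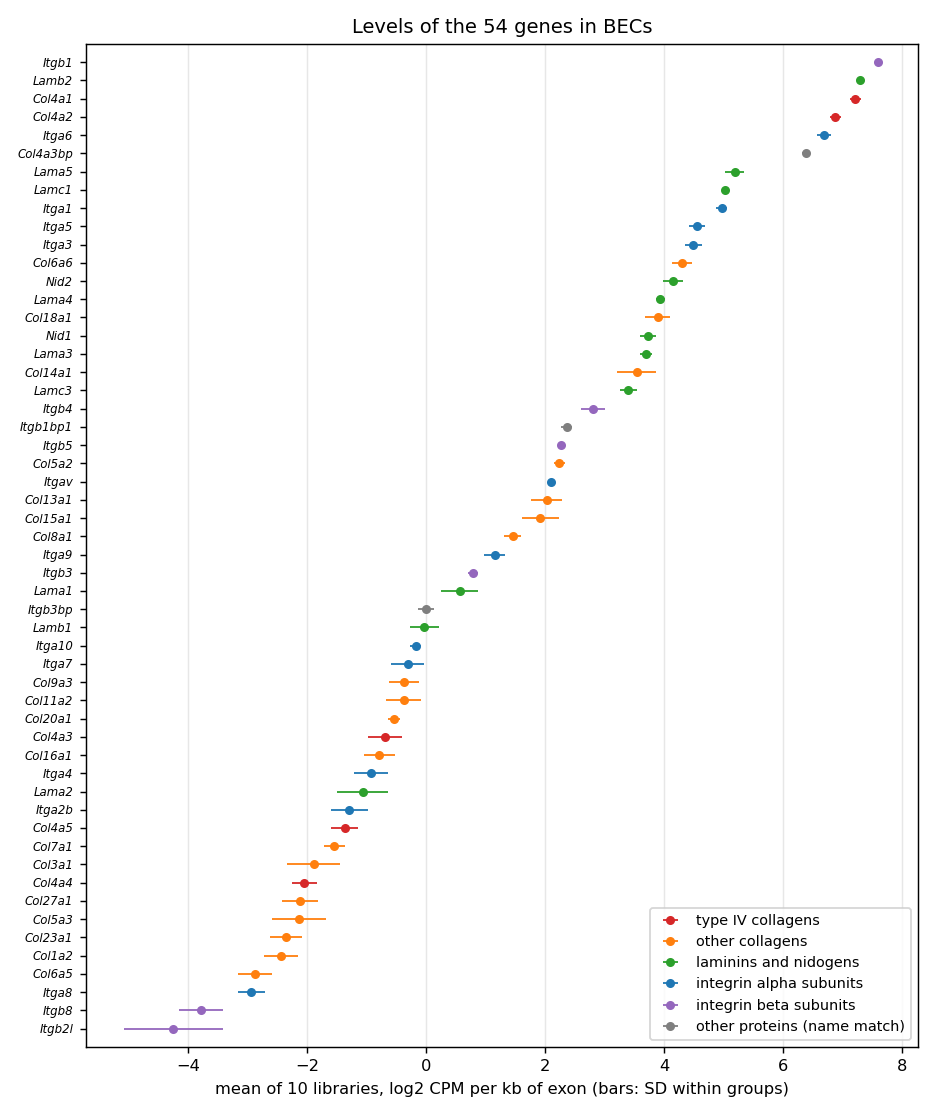
Mean level of the 54 genes in 10 libraries in log2 CPM per kb of exon, in order, with bars for the pooled SD within the 2 groups (n = 5 each) and colours for the families. Itgb1, Lamb2, Col4a1, Col4a2 and Itga6 form the top of the order, and Itgb8 and Itgb2l the bottom.

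Before the genotypes are compared, 2 features of the values bear on every result. The authors corrected the values for batch, and after this the mean of each pair was nearly the same: over the 54 genes the median SD of the pair mean across pairs was 0.00879 log2 units, against 0.345 for the difference within a pair. The control and the APP/PS1 value of a pair are therefore mirror images around a common mean, and 10 values hold 5 independent differences. Pair 1 had the fewest adjusted counts, 22371766 and 22993426, against 68813558 to 126686149 in the other libraries. Pair 2 often ran against the other 4, and values without it are given where it decides a result.

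No member passed the test between APP/PS1 and control BECs. Limma, with the pair as a block and adjustment over 14106 genes, called 0 of 54 members at an adjusted p under 0.05, and the background of all genes was 0.00% called. The lowest adjusted p among members was 0.441 and that among all genes 0.195. Without the block limma called 7 members, all lower, and 4.59% of all genes, but that fit does not count the 4 degrees of freedom that the correction for pair means had used. At an unadjusted p under 0.05 there were 11 members, all lower in APP/PS1: Col6a6, Col5a3, Col4a5, Col20a1, Col27a1, Col1a2, Col9a3, Itga8, Itga7, Itga10 and Itgb8. This is 20.4% of the members against 5.91% of all genes. No member was higher at that level, against 2.13% of all genes. In total 8 members were lower in all 5 pairs, 14.8% against 5.00% of all genes, and 0 were higher in all 5 pairs, against 2.99%. These 8 were Itgb5 and 7 of the 11 genes just named. The groups did not overlap for the same number, 8 lower and 0 higher members, against 4.96% and 2.91% of all genes. The median log2 fold change of the members was −0.05, beside −0.0038 over all genes, and 22 of 54 members were above 0.

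Level and direction went together. The median gene of the table had 4.30 log2 CPM. Of 24 members above it, 18 had a log2 fold change above 0, with a median of 0.11, beside 4058 of all 7053 genes there. Among these 24, 1, Col6a6, was lower with an unadjusted p under 0.05. This is 4.17%, beside 1.83% of all genes above that level. Of 30 members at or below it, 26 had a log2 fold change below 0, with a median of −0.27, beside 4313 of all 7053 genes there. Among these 30, the 10 other genes with an unadjusted p under 0.05 made up 33.3%, where 9.98% of all 7053 genes at or below that level were lower with such a p. Over all genes at or below the median level the median log2 fold change was −0.04, and over those above it 0.01. Sparse genes also have noisier log ratios, and the prior count of 3 pulls them toward 0.

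**Figure D2:**
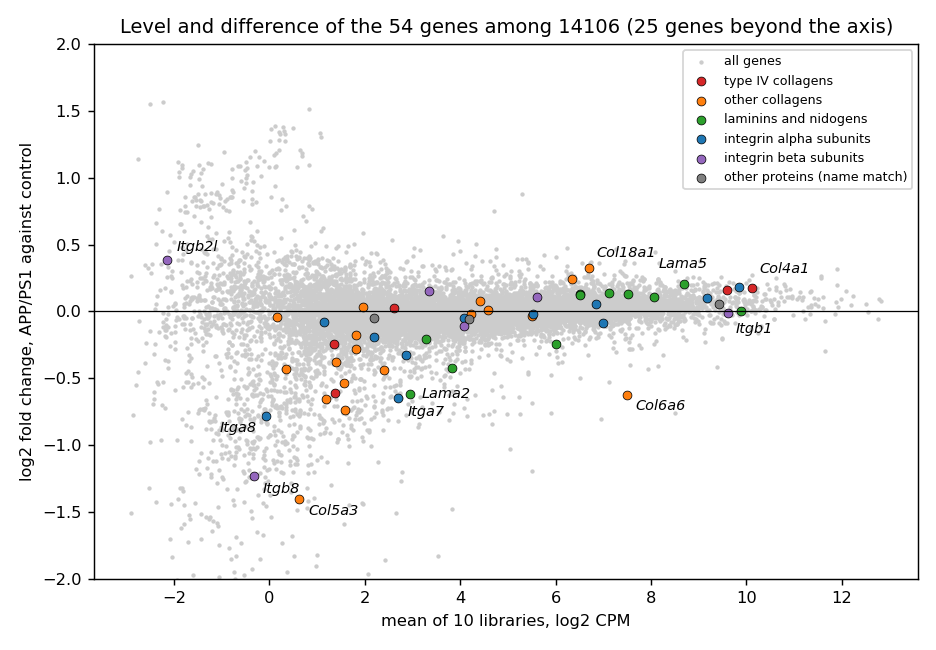
Mean log2 CPM (x axis) against the log2 fold change of APP/PS1 over control BECs (y axis) for 14106 genes in grey, of which 25 lie beyond the axis, and the 54 members in the colours of their families. Of the 24 members above the median level 18 sit above 0 and 6 below it, Col6a6 the farthest. Most members on the left sit below 0.

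Most chains of the capillary basement membrane were slightly higher in APP/PS1 BECs in 4 of 5 pairs, and none passed the test. Col4a1 encodes the chain that, with one shared partner, makes the main type IV collagen trimer. It had 10.01, 10.17, 9.998, 9.95 and 9.96 log2 CPM in control replicates 1 to 5 and 10.20, 10.04, 10.22, 10.27 and 10.25 in APP/PS1 replicates 1 to 5. Col4a2, its partner, had 9.5, 9.68, 9.48, 9.47 and 9.46 in control and 9.70, 9.51, 9.72, 9.73 and 9.74 in APP/PS1 BECs. The APP/PS1 library was the higher one in pairs 1, 3, 4 and 5 and the lower one in pair 2, so the groups overlapped. For Col4a1 the group means of 10.02 ± 0.0881 and 10.20 ± 0.0929 (SD, n = 5) gave a difference of 0.18 on the log2 scale (SE 0.0776, limma adjusted p = 0.661). Col4a2 thus averaged 9.52 ± 0.0936 against 9.68 ± 0.0988 in APP/PS1 (SD, n = 5), with a log2 fold change of 0.16 (SE 0.0813, limma adjusted p = 0.726). The back-to-back genes kept step: in each pair their differences were within 0.0542 log2 units of each other. Reads in the 22 shared bases cannot be told apart without strand, but the merged exons of these genes are 7464 and 6619 bases long.

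The main laminins of vessels share their gamma chain and differ in the alpha chain, encoded by Lama4 or Lama5. Lama5 had 8.498, 8.85, 8.55, 8.58 and 8.47 log2 CPM in control and 8.88, 8.51, 8.84, 8.82 and 8.91 in APP/PS1 BECs. For Lama4 the values were 7.496, 7.41, 7.46, 7.55 and 7.36 in the control libraries and 7.55, 7.63, 7.60, 7.48 and 7.68 in the APP/PS1 ones. Lamc1, the common gamma chain, had 7.99, 8.09, 7.98, 8.002 and 7.97 in the control libraries and 8.13, 8.03, 8.14, 8.13 and 8.15 in the APP/PS1 ones. Lama5 and Lamc1 were higher in APP/PS1 in all pairs but pair 2, whereas Lama4 was higher in all pairs but pair 4, and every one of these genes overlapped between the groups. With 8.59 ± 0.153 as the control and 8.79 ± 0.162 as the APP/PS1 mean (SD, n = 5), Lama5 had a log2 difference of 0.20 (SE 0.123, limma adjusted p = 0.784). The log2 fold change of Lama4 came to 0.13 (SE 0.0681, limma adjusted p = 0.733), on means of 7.46 ± 0.0737 and 7.59 ± 0.0773 (SD, n = 5). Control libraries averaged 8.01 ± 0.0483 for Lamc1 and APP/PS1 libraries 8.12 ± 0.0506 (SD, n = 5), which gave a log2 fold change of 0.11 (SE 0.0534, limma adjusted p = 0.721).

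The beta chains went with neither. Lamb2, the more abundant one, had 9.86, 9.97, 9.90, 9.83 and 9.87 log2 CPM in control and 9.91, 9.80, 9.88, 9.95 and 9.90 in APP/PS1 BECs. Lamb1 had 3.06, 3.75, 3.33, 3.32 and 3.45 in the control libraries and 3.44, 2.78, 3.25, 3.26 and 3.13 in the APP/PS1 ones. The differences of Lamb2 in the pairs lay between −0.17 and 0.11 log2 units, while Lamb1 was higher in pair 1 alone. For Lamb2 the group means of 9.88 ± 0.0517 and 9.89 ± 0.0546 (SD, n = 5) gave a difference of 0.0025 on the log2 scale (SE 0.0553, limma adjusted p = 0.996). Its sign was negative under scaling to the library total alone, at −0.03. Lamb1 thus averaged 3.38 ± 0.249 against 3.17 ± 0.245 in APP/PS1 (SD, n = 5), with a log2 fold change of −0.21 (SE 0.187, limma adjusted p = 0.847). Without pair 2 it was −0.0164.

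Nidogens link the laminin and collagen networks. Nid1 had 6.38, 6.67, 6.32, 6.51 and 6.42 log2 CPM in control and 6.66, 6.36, 6.72, 6.54 and 6.63 in APP/PS1 BECs. Nid2 had 6.29, 6.72, 6.38, 6.47 and 6.37 in the control libraries and 6.72, 6.29, 6.66, 6.57 and 6.66 in the APP/PS1 ones. Both were higher in 4 of 5 pairs and lower in pair 2. With 6.46 ± 0.136 as the control and 6.58 ± 0.138 as the APP/PS1 mean (SD, n = 5), Nid1 had a log2 difference of 0.12 (SE 0.109, limma adjusted p = 0.845). The log2 fold change of Nid2 came to 0.13 (SE 0.131, limma adjusted p = 0.862), on means of 6.45 ± 0.166 and 6.58 ± 0.172 (SD, n = 5). Over these 9 basement membrane genes the median log2 fold change was 0.13, with pair medians of 0.20, −0.18, 0.22, 0.11 and 0.28, and 8 of the 9 were above 0, Lamb1 being the exception.

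Without pair 2 these genes read differently, but its turn was not theirs alone. In that pair 43 of the 54 members were lower in APP/PS1. So were 31 of 37 integrin adaptors and signalling genes, 21 of 23 matrix partners and 21 of 26 processing genes. Of 15 endothelial markers 10 were lower and 5 higher, with a median of −0.05. Of all genes, 7015 of 14106 were lower. The median astrocyte marker was 0.55 higher there. Of 11 oligodendrocyte lineage markers 7 were lower and 4 higher in that pair, with a median of −0.08. The myelin genes Mbp and Mobp, among the higher ones, differed by 5.79 and 6.08 log2 units. The part of these markers in the values of pair 2 was not tested. Pair 2 was singled out because these same values ran against the other 4 pairs there. The p values without it therefore depend on that choice and give no support. With pair 2 left out the median of the 9 genes was 0.23, and 6 of them had an unadjusted p under 0.05, all higher in APP/PS1. Col4a1 was then at 0.26, Col4a2 at 0.25, Lama5 at 0.34, Lamc1 at 0.15, Nid1 at 0.23, Nid2 at 0.27 and Itga6 at 0.27. Over all members, 10 were then higher with such a p, where 5.86% of all genes were, and 10 were lower, where 8.38% were. Of the 11 lower genes of the full set, 9 kept such a p. The 10 higher ones were Col18a1, Lama5, Col4a2, Col4a1, Itga6, Nid2, Lamc1, Itgb3, Nid1 and Col14a1. Limma without pair 2 called 0 members, with a lowest adjusted p of 0.169, and 0.0354% of all genes. No reason to leave out pair 2 comes from the labels, and its libraries held 126686149 adjusted counts in control and 101313832 in APP/PS1.

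**Figure D3:**
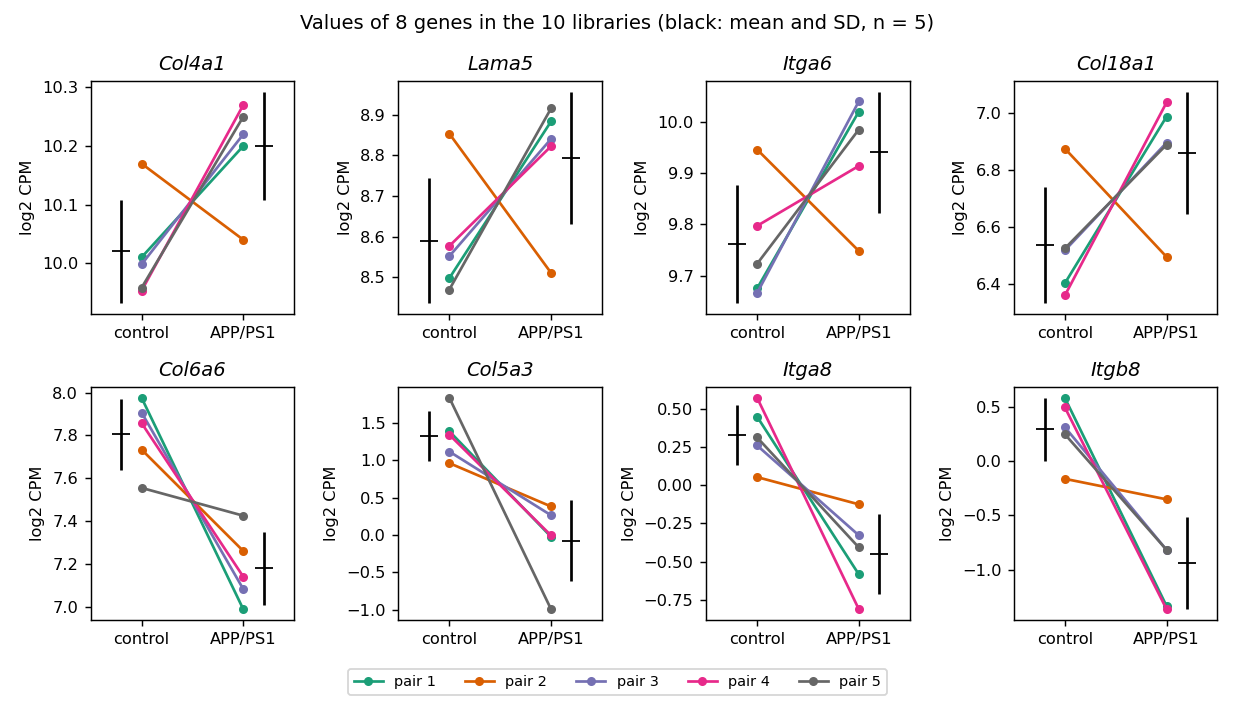
Log2 CPM of 8 genes in 10 libraries, each line joining the control and the APP/PS1 library of a pair, with the mean and SD of each group in black (n = 5 each). In the upper row the APP/PS1 library is the lower one in pair 2 and the higher one in pairs 1, 3, 4 and 5, and in the lower row it is the lower one in all 5 pairs.

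The other type IV chains were sparse. Col4a5, a chain of other type IV trimers, had 1.98, 1.62, 1.56, 1.70 and 1.54 log2 CPM in control and 0.61, 1.17, 1.23, 1.08 and 1.25 in APP/PS1 BECs. Every APP/PS1 library was below every control library, and replicate 1 was the lowest. Control libraries averaged 1.68 ± 0.179 for Col4a5 and APP/PS1 libraries 1.07 ± 0.264 (SD, n = 5), which gave a log2 fold change of −0.61 (SE 0.169, limma adjusted p = 0.55). Col4a3 and Col4a4, which together with Col4a5 make the trimer of the kidney filter, had mean levels of 2.62 and 1.35 log2 CPM. Col4a3 differed by −0.52, 0.85, 0.33, −0.40 and −0.14 log2 units in pairs 1 to 5, and Col4a4 by −0.77, −0.16, 0.37, −0.43 and −0.24. These neighbours went the same way in 4 pairs and apart in pair 2, where the difference of Col4a4 minus that of Col4a3 was −1.01. This match was looser than that of Col4a1 and Col4a2, which have far more counts.

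Of the 18 other collagen genes, 13 (72.2%) had a log2 fold change below 0, beside 51.8% of all genes. Lower with an unadjusted p under 0.05 were 5.91% of all genes, and 9.98% of those at or below the median level. In this family 6 genes, or 33.3%, had such a p, all lower. Col6a6, a chain of the beaded filament collagens, was the one abundant gene among them, with 7.98, 7.73, 7.91, 7.86 and 7.55 log2 CPM in control and 6.99, 7.26, 7.08, 7.14 and 7.42 in APP/PS1 BECs. The groups did not overlap, and the gap was narrowest in pair 5. For Col6a6 the group means of 7.81 ± 0.166 and 7.18 ± 0.169 (SD, n = 5) gave a difference of −0.63 on the log2 scale (SE 0.13, limma adjusted p = 0.441). Under the alternatives tried, its log2 fold change lay between −0.75 and −0.54.

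All 6 fibrillar collagen genes, whose products form the cables of connective tissue, were below 0, with 3 at an unadjusted p under 0.05. Their median level was 1.49 log2 CPM. Of all genes at or below the median level of the table, 61.15% were below 0 and 9.98% were lower with such a p. Col5a3, a chain of a collagen that sets fibril width, had 1.39, 0.96, 1.11, 1.34 and 1.83 log2 CPM in control and −0.02, 0.38, 0.26, −0.01 and −0.9951 in APP/PS1 BECs, without overlap and with the lowest value in replicate 5. Col5a3 thus averaged 1.33 ± 0.332 against −0.08 ± 0.542 in APP/PS1 (SD, n = 5), with a log2 fold change of −1.40 (SE 0.325, limma adjusted p = 0.514). Col1a2, a chain of type I collagen, had 1.80, 1.20, 1.41, 1.75 and 1.42 in control and 0.47, 1.21, 1.03, 0.56 and 1.02 in APP/PS1 BECs. Its libraries in pair 2 were level, and the groups touched there. With 1.52 ± 0.251 as the control and 0.86 ± 0.322 as the APP/PS1 mean (SD, n = 5), Col1a2 had a log2 difference of −0.66 (SE 0.216, limma adjusted p = 0.569). For Col27a1 the values were 2.29, 1.56, 2.005, 1.98 and 1.88 in the control libraries and 0.69, 1.60, 1.21, 1.22 and 1.33 in the APP/PS1 ones. Pair 2 was again level and the other 4 pairs were lower. The log2 fold change of Col27a1 came to −0.74 (SE 0.222, limma adjusted p = 0.567), on means of 1.94 ± 0.261 and 1.21 ± 0.331 (SD, n = 5). The remaining fibrillar genes, Col3a1, Col5a2 and Col11a2, had log2 fold changes of −0.38, −0.03 and −0.44.

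Col9a3 and Col20a1 belong to the collagens that sit on fibrils. Col9a3 had 2.01, 2.09, 1.88, 1.46 and 1.74 log2 CPM in control and 1.14, 1.02, 1.29, 1.63 and 1.43 in APP/PS1 BECs, lower in all pairs but pair 4. Col20a1 had 2.03, 2.04, 1.84, 2.002 and 1.86 in the control libraries and 1.61, 1.57, 1.79, 1.61 and 1.76 in the APP/PS1 ones. In the latter the groups did not overlap, but the difference was small. Control libraries averaged 1.84 ± 0.249 for Col9a3 and APP/PS1 libraries 1.30 ± 0.24 (SD, n = 5), which gave a log2 fold change of −0.53 (SE 0.185, limma adjusted p = 0.575). For Col20a1 the group means of 1.95 ± 0.0986 and 1.67 ± 0.1 (SD, n = 5) gave a difference of −0.28 on the log2 scale (SE 0.0833, limma adjusted p = 0.562).

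Col18a1, whose basement membrane proteoglycan yields endostatin, was the collagen with the largest upward difference. It had 6.40, 6.88, 6.52, 6.36 and 6.52 log2 CPM in control and 6.99, 6.49, 6.90, 7.04 and 6.89 in APP/PS1 BECs, higher in 4 pairs and lower in pair 2. Col18a1 thus averaged 6.54 ± 0.204 against 6.86 ± 0.215 in APP/PS1 (SD, n = 5), with a log2 fold change of 0.33 (SE 0.16, limma adjusted p = 0.719). Without pair 2 it was 0.504 (SE 0.0751, limma adjusted p = 0.197). The 11 collagen genes not given library by library, outside type IV, had log2 fold changes between −0.44 for Col11a2 and 0.24 for Col14a1.

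**Figure D4:**
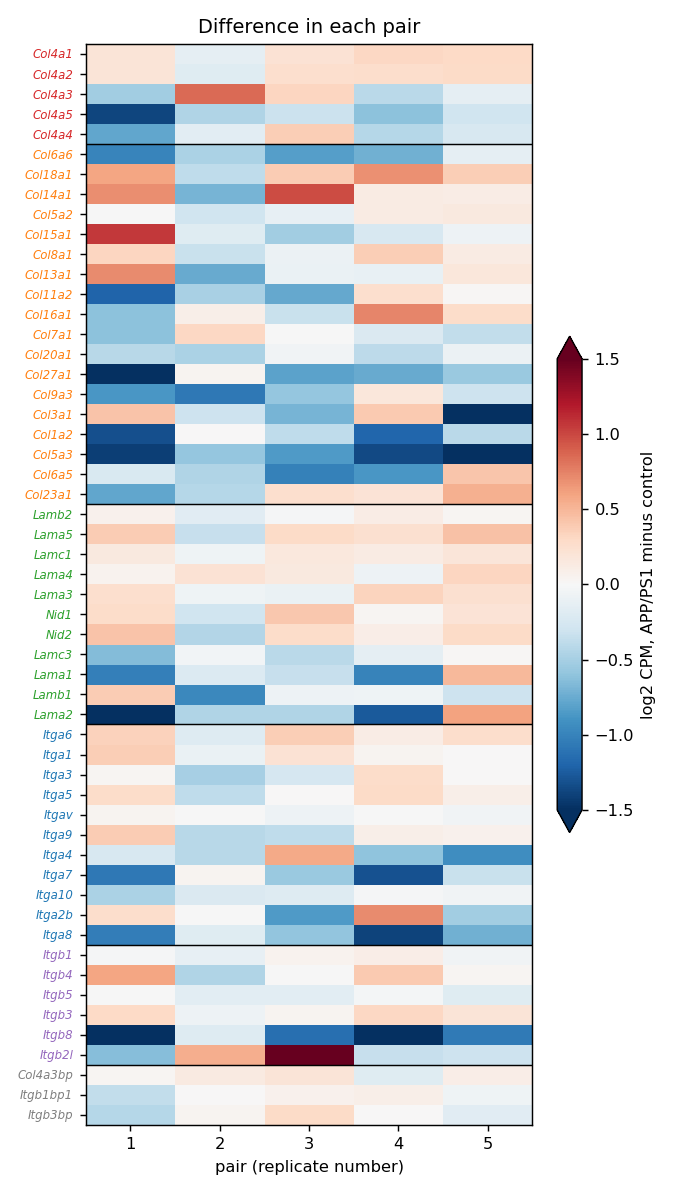
Difference of APP/PS1 minus control in log2 CPM in each of 5 pairs (columns) for the 54 genes (rows), grouped by family and ordered by level within it, with red for higher and blue for lower in APP/PS1. For Col4a1, Col4a2, Lama5, Lamc1 and Itga6 the column of pair 2 is blue and the others are red, and Itgb8, Itga8, Col5a3 and Col6a6 are blue throughout.

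Among the laminin genes the largest downward difference was that of Lama2, the alpha chain of muscle and of the outer vascular sheet. It had 3.65, 3.23, 3.24, 3.56 and 2.64 log2 CPM in control and 2.11, 2.78, 2.79, 2.31 and 3.25 in APP/PS1 BECs. The order turned in pair 5, where the APP/PS1 library was higher. With 3.27 ± 0.395 as the control and 2.65 ± 0.447 as the APP/PS1 mean (SD, n = 5), Lama2 had a log2 difference of −0.62 (SE 0.313, limma adjusted p = 0.73). Lama1 had the same order in the pairs, with differences of −1.02, −0.21, −0.35, −1.01 and 0.49. Lama3 and Lamc3 had log2 fold changes of 0.13 and −0.24.

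The main integrin subunits of endothelium differed little. Itgb1 had 9.63, 9.68, 9.60, 9.58 and 9.64 log2 CPM in control and 9.61, 9.56, 9.64, 9.67 and 9.60 in APP/PS1 BECs. Itga6 had 9.68, 9.95, 9.67, 9.80 and 9.72 in the control libraries and 10.02, 9.75, 10.04, 9.91 and 9.98 in the APP/PS1 ones. Itgb1 was lower in 3 of 5 pairs, whereas Itga6 was higher in all pairs but pair 2. The log2 fold change of Itgb1 came to −0.0097 (SE 0.05, limma adjusted p = 0.973), on means of 9.62 ± 0.041 and 9.62 ± 0.0444 (SD, n = 5). Without pair 2 its sign turned, at 0.02, and without pair 5 it was 0.0002. Control libraries averaged 9.76 ± 0.116 for Itga6 and APP/PS1 libraries 9.94 ± 0.118 (SD, n = 5), which gave a log2 fold change of 0.18 (SE 0.095, limma adjusted p = 0.734).

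Itga5 and Itgav encode the alpha subunits of receptors for fibronectin and vitronectin, which read the tripeptide RGD. Itga5 had 6.71, 7.03, 6.85, 6.71 and 6.81 log2 CPM in control and 6.98, 6.65, 6.85, 6.99 and 6.89 in APP/PS1 BECs. Itgav had 5.504, 5.53, 5.56, 5.54 and 5.55 in the control libraries and 5.55, 5.52, 5.49, 5.53 and 5.503 in the APP/PS1 ones. Itgav varied least of all members, with an SD of 0.0227 within groups, and both genes overlapped fully between the groups. For Itga5 the group means of 6.82 ± 0.135 and 6.87 ± 0.138 (SD, n = 5) gave a difference of 0.05 on the log2 scale (SE 0.108, limma adjusted p = 0.93). It was 0.16 without pair 2, −0.0013 without pair 1 and −0.0048 without pair 4. Itgav thus averaged 5.54 ± 0.0233 against 5.52 ± 0.0221 in APP/PS1 (SD, n = 5), with a log2 fold change of −0.02 (SE 0.0422, limma adjusted p = 0.945). Itgb3, a beta partner of Itgav, had 3.20, 3.39, 3.33, 3.20 and 3.25 in control and 3.501, 3.31, 3.38, 3.51 and 3.45 in APP/PS1 BECs, higher in all pairs but pair 2. With 3.27 ± 0.0824 as the control and 3.43 ± 0.0851 as the APP/PS1 mean (SD, n = 5), Itgb3 had a log2 difference of 0.15 (SE 0.0733, limma adjusted p = 0.705). Itga2b, the platelet partner of Itgb3, had 1.04, 1.17, 1.55, 0.76 and 1.41 in the control libraries and 1.31, 1.17, 0.71, 1.47 and 0.89 in the APP/PS1 ones, with no common direction. The log2 fold change of Itga2b came to −0.08 (SE 0.233, limma adjusted p = 0.957), on means of 1.19 ± 0.31 and 1.11 ± 0.309 (SD, n = 5). Its sign turned without pair 3, at 0.11, and without pair 5, at 0.03. Of 9 platelet marker genes 1, Clec1b, was among the genes analysed.

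Lower integrin genes were sparse ones. Itgb8 forms with the alpha V subunit a receptor that releases TGF-beta from its latent form. It had 0.58, −0.16, 0.31, 0.4954 and 0.25 log2 CPM in control and −1.34, −0.35, −0.82, −1.37 and −0.82 in APP/PS1 BECs. The groups did not overlap, and the libraries of pair 2 were the nearest to each other. Control libraries averaged 0.30 ± 0.289 for Itgb8 and APP/PS1 libraries −0.94 ± 0.422 (SD, n = 5), which gave a log2 fold change of −1.23 (SE 0.265, limma adjusted p = 0.454). Its lowest library held 8 adjusted counts.

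Itga8, which pairs with the beta 1 subunit to bind nephronectin, had 0.45, 0.05, 0.26, 0.58 and 0.32 log2 CPM in control and −0.58, −0.12, −0.33, −0.81 and −0.41 in APP/PS1 BECs. No libraries of the groups overlapped. For Itga8 the group means of 0.33 ± 0.198 and −0.45 ± 0.261 (SD, n = 5) gave a difference of −0.78 on the log2 scale (SE 0.174, limma adjusted p = 0.483). Itga7, an alpha subunit of laminin receptors best known from muscle, had 3.23, 2.69, 3.01, 3.31 and 2.90 in control and 2.16, 2.73, 2.45, 2.01 and 2.56 in APP/PS1 BECs, level in pair 2 and lower in the others. Itga7 thus averaged 3.03 ± 0.251 against 2.38 ± 0.294 in APP/PS1 (SD, n = 5), with a log2 fold change of −0.65 (SE 0.206, limma adjusted p = 0.569). Itga10, the alpha subunit of a collagen receptor, had 2.42, 2.31, 2.29, 2.21 and 2.22 in the control libraries and 1.95, 2.08, 2.10, 2.19 and 2.17 in the APP/PS1 ones. It was lower in all pairs, by little in pairs 4 and 5. With 2.29 ± 0.0864 as the control and 2.10 ± 0.0933 as the APP/PS1 mean (SD, n = 5), Itga10 had a log2 difference of −0.19 (SE 0.0771, limma adjusted p = 0.622).

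Itgb2l stood apart by its scarcity. It had −1.57, −2.18, −4.35, −1.75 and −1.80 log2 CPM in control and −2.21, −1.63, −1.70, −2.10 and −2.12 in APP/PS1 BECs. Control replicate 3, with 1 adjusted count, was far below all others and made this the beta subunit gene with the largest upward value. The log2 fold change of Itgb2l came to 0.38 (SE 0.501, limma adjusted p = 0.893), on means of −2.33 ± 1.15 and −1.95 ± 0.266 (SD, n = 5). Without pair 3 the sign turned, at −0.19. The other integrin genes, Itga1, Itga3, Itga4, Itga9, Itgb4 and Itgb5, lay between −0.33 for Itga4 and 0.11 for Itgb4. Itgb5 was lower in all pairs, with differences between −0.18 and −0.00091. The 3 genes matched by letters lay between −0.05 and 0.06.

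Most markers of other cells were lower in APP/PS1, as were most sparse members. The counts of lower markers here and in the next paragraph stand beside a background. With an unadjusted p under 0.05, 5.91% of all genes were lower, and 9.98% of those at or below the median level. All 15 endothelial marker genes were among the genes analysed, with a summed level of 28047 to 29990.3 CPM in control and 28393 to 30415 in APP/PS1 libraries, and 0 of them had an unadjusted p under 0.05. All 13 mural cell markers were lower, 11 with an unadjusted p under 0.05, and their summed level was 637 to 1069.9 CPM in control and 332 to 639.9 in APP/PS1 libraries. None of the 13 was at 0 in any library. The median mural marker differed by −1.62, −0.27, −0.63, −1.43 and 0.01 log2 units in pairs 1 to 5. In the same pairs the median of the 30 members at or below the median level was −0.62, −0.20, −0.33, −0.28 and −0.21. Of the 11 members with an unadjusted p under 0.05, 5 (Col4a5, Col1a2, Itga7, Itga8 and Itgb8) had their lowest differences in pairs 1 and 4. The other 6, Col6a6, Col5a3, Col20a1, Col27a1, Col9a3 and Itga10, did not. The share of all genes with this order was not counted. Mural marker medians were also lowest in pairs 1 and 4. So were those of oligodendrocyte lineage markers (−1.77 and −1.34) and of choroid plexus and ependymal markers (−1.97 and −1.49), but not those of the other marker lists. In pair 5 the median mural marker was level and the median oligodendrocyte lineage marker at −1.30. There the difference of Col5a3 was −2.83 log2 units and that of Itgb8 −1.07.

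Fibroblast markers were 6 of 12 among the genes analysed, 5 of them below 0 and 2 with an unadjusted p under 0.05, with Lum, Slc6a13 and Dpt among those not analysed here. Their summed level was 325 to 506 CPM in control and 382 to 561 in APP/PS1 libraries, most of it from Mgp. Of 10 astrocyte markers, 9 were below 0 and 2 had an unadjusted p under 0.05, with summed levels of 181 to 223 and 181 to 226 CPM, most of it from Gja1. Oligodendrocyte lineage markers were 11 of 12, of which 10 were below 0 and 7 had an unadjusted p under 0.05, with sums of 63.8 to 300.2 and 53.9 to 162 CPM. Mag was at 0 in 1 library, APP/PS1 replicate 4. Choroid plexus and ependymal markers were 6 of 11, of which 5 were below 0 and 4 had an unadjusted p under 0.05, with sums of 55.5 to 90.0 and 39.4 to 60.1 CPM and Prlr at 0 in APP/PS1 replicate 1. Of 11 neuron markers 5 were analysed, 4 of them below 0 and 2 with an unadjusted p under 0.05, with sums of 94.6 to 118 and 98.4 to 123 CPM. Microglia and leukocyte markers were 10 of 13, with 5 on either side of 0, none with an unadjusted p under 0.05 and sums of 61.8 to 73.1 and 58.3 to 69.4 CPM. In bulk RNA fewer cells of a type and less RNA per cell cannot be told apart, and the part of these cells in the differences of the members was not tested.

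**Figure D5:**
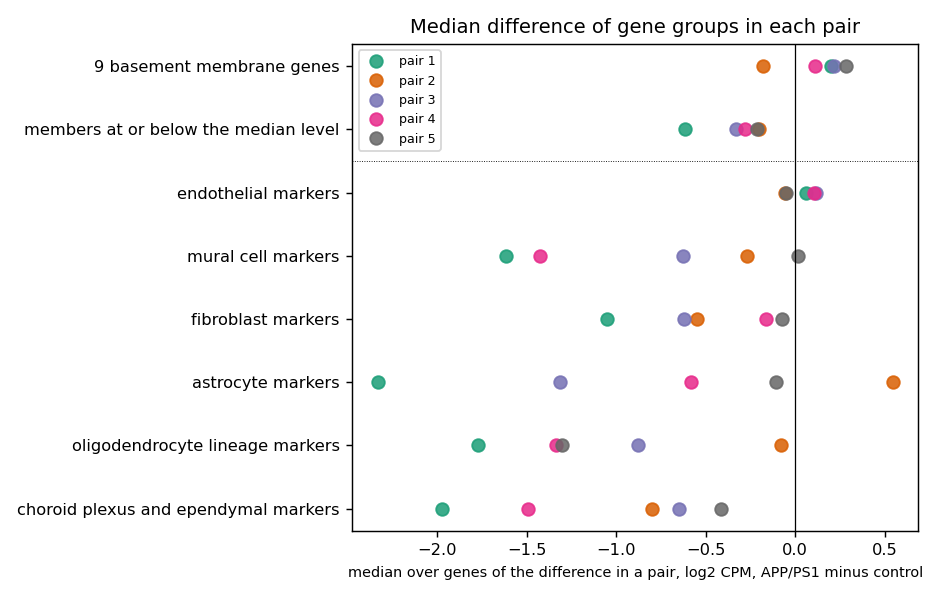
Median difference of APP/PS1 minus control in log2 CPM over the genes of a group (x axis) in each of 5 pairs (points) for 9 capillary basement membrane genes, the 30 members at or below the median level and 6 marker lists. The basement membrane points lie between −0.18 and 0.28 and the endothelial ones between −0.05 and 0.12. Most points of the other marker lists drawn lie well below 0. Neuron markers and microglia and leukocyte markers are not drawn, and the latter had medians of 0.49, 0.34, −0.72, 0.02 and −0.60 in pairs 1 to 5.

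The other genes of the matrix pathway were counted in 4 lists written from general knowledge. Of 23 basement membrane and matrix partners, which surround or bind the member proteins, 15 were above 0 and 5, or 21.7%, were lower with an unadjusted p under 0.05, beside 5.91% of all genes. The smallest p values were those of Fbln1, a fibulin of basement membranes, at −0.49, and Ddr2, a collagen receptor kinase, at −0.39. Of 26 genes for collagen and laminin processing, 5 were lower with such a p, 19.2%. Tll1, a protease that trims procollagen, stood at −0.45, and so did Pcolce, which enhances that step. Of 21 proteases and inhibitors, 2 were lower with such a p, 9.52%. These were Mmp14, a membrane-bound collagenase, at −0.79, and Mmp24 at −0.17. Of 37 integrin adaptors and signalling genes, 3 were lower with such a p, 8.11%, which is near the share of all genes. Tns3, a tensin, at −0.72 and Ptk2b, a kinase related to focal adhesion kinase, at −0.50 had the smallest p values. None of these 4 lists had a gene that was higher with an unadjusted p under 0.05 or any gene with an adjusted p under 0.05 from limma. Vtn, among the 5 lower matrix partners, was also counted as a mural cell marker. Pcolce, among the 5 lower processing genes, was also counted as a fibroblast marker.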

How the data were processed

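RNA was sequenced from BECs of 5 APP/PS1 and 5 control mice or pools. The authors aligned reads to mm10 with STAR, counted them with HTSeq-count, dropped low genes with filterByExpr and took log CPM with edgeR, and name ComBat for the batch correction. The deposited values are log2 CPM of 14106 genes. All convert back to whole adjusted counts (prior count 3, tolerance 0.01), and since these are not reads, counting error was not estimated. Depth ran from 22371766 to 126686149 adjusted counts. A ComBat correction of log CPM would not in general leave whole numbers, so the correction used is uncertain. The study's quality plots show 5 batches, 1 library of each genotype in each, and these are the replicate pairs. The labels give 4 batches, with replicates 4 and 5 in batch 4.

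R 4.3.3 with limma 3.58.1 (lmFit, eBayes) modelled genotype and the replicate block on these values, with Benjamini-Hochberg adjustment at 0.05, after a check on simulated data. Pairing comes from these batches. A deviation check is void because the correction set pair means equal. Members and lists were chosen with earlier results of these data known. Library values are given for members with an unadjusted p under 0.05, 13 capillary genes, the extremes of each family, and Itga2b and Itgb3. Lengths, positions and names are from GENCODE M21, where all 14106 genes were found. The alternatives were other blocks, variance models, weights, scalings, prior count, filter and threshold, and each pair left out.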

Additional observations from a re-analysis of the deposited data

Results flagged for a closer look

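In 58 groups of 5 libraries, 1 for each genotype of the 29 genes given by library, 11 libraries stood far from the other 4. About 3 would be expected from independent groups. These groups are not independent and some genes were named for their values, so the 2 numbers cannot be weighed against each other. Of these, 9 belong to pair 2, in 5 basement membrane genes. Because the values of a pair mirror each other, a far control library and a far APP/PS1 library of the same pair are a single observation. For Col4a1, control replicate 2 was the highest at 10.169 log2 CPM and APP/PS1 replicate 2 the lowest at 10.036. For Col4a2 the same libraries had 9.684 and 9.506, for Lama5 8.853 and 8.511, and for Lamc1 8.091 and 8.026. For Col18a1 APP/PS1 replicate 2 was the lowest at 6.494. Outside pair 2, Col4a5 was lowest in APP/PS1 replicate 1 at 0.609 log2 CPM, and Itgb2l in control replicate 3 at −4.353.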

How the results depend on the processing

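With no replicate block, limma called 7 members, all lower: Col6a6, Itgb8, Itga8, Col5a3, Col20a1, Col4a5 and Col27a1, with adjusted p from 0.0117 to 0.0482. That fit counts pair means that the correction had already set equal as free spread, and called 4.59% of all genes. It gave 24 members an unadjusted p under 0.05, 7 higher and 17 lower, against 0 higher and 11 lower with the block, and weights per library gave 18, 7 higher and 11 lower. Leaving out each pair gave 8 to 20, with 20, 10 higher and 10 lower, without replicate 2. In all other alternatives 0 members were called, also at a threshold of 0.10, and 8 to 14 had such a p. Without replicate 2, 5.86% of all genes were higher and 8.38% lower with such a p. Apart from the main fit, no other setting had this share counted, so its member counts stand without a background. The median log2 fold change of members stayed below 0, between −0.09 and −0.0019. Scaling to the library total alone turned Lamb2 to −0.0348. Leaving out a pair, values lay between −0.28 and 0.11 for Itga2b, −0.0048 and 0.16 for Itga5, −0.0358 and 0.019 for Itgb1, −0.19 and 0.636 for Itgb2l, and −0.0249 and 0.0448 for Lamb2, and the other 24 genes given by library kept their sign. The capillary basement membrane median, varied after the data were seen, ran from 0.09 to 0.23. Depth limits the sparse genes: Itgb2l, Itgb8 and Itga8 had as few as 1, 8 and 14 adjusted counts in a library.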
